A study of Mus musculus with 65 samples.

Results

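The 32 genes described here are markers of the macroglia of the retina, the Müller glia and the astrocytes. They were chosen by name from a list of known marker genes and found by symbol among the 50686 genes of the deposited count table, and all 32 were found. Gfap, the intermediate filament gene of astrocytes and of reactive Müller glia, is not among them and serves only as a reference. The libraries were made from homogenised whole retina, so a value is the level of a transcript over all retinal cells, and for every result given here fewer cells of a type and less RNA per cell cannot be told apart.

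The retinas came from 65 adult C57BL/6J mice in 16 groups, with no transgene named for the sequenced animals. CD mice (n = 5) received control diet, labelled vehicle. DEP2, DEP5, DEP7, DEP10, DEP14 and DEP21 mice were fed PLX5622, an inhibitor of the CSF1 receptor that depletes microglia of the brain as well as the retina, for 2, 5, 7, 10, 14 or 21 days. REPOP3, REPOP5, REPOP7, REPOP10, REPOP14, REPOP21 and REPOP60 mice were taken 3, 5, 7, 10, 14, 21 or 60 days after a return from PLX5622 to control diet, when microglia refill the tissue. LPSCD mice (n = 3) kept their resident microglia and received systemic lipopolysaccharide (LPS, a bacterial cell wall component). LPSREPOP mice (n = 4) received PLX5622 and LPS according to the labels, and the study's methods name the group as LPS-challenged retina after repopulation. The days of repopulation before LPS are not given in the labels, so REPOP60 was an assumed reference for LPSREPOP, and the length of repopulation and LPS cannot be told apart in that comparison. DEP5 had 3 mice, REPOP7 had 6 and each of the other depletion and repopulation groups had 4.

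Each mouse contributed between 5106429 and 8760443 counts, with a median of 7944665. The sample titles end in RE (39 mice) or re (26 mice), and the labels do not say what this title suffix stands for. Most depletion and repopulation groups hold 3 RE mice and 1 re mouse, DEP5 holds RE mice only, and REPOP60, LPSCD and LPSREPOP hold re mice only. CD holds 3 RE mice and 2 re mice, replicates 1 and 2M. The REPOP60 mice carry the same mark, 2M, in their descriptions. The labels were checked against a list of 15 microglial genes. All 15 were lower in the depletion groups than in CD (median log2 fold change -5.71), and their summed level was 66.8 to 86.8 CPM in CD, 56.8 to 66.4 CPM in REPOP60, 128 to 150.5 CPM in LPSCD and 75.7 to 119.7 CPM in LPSREPOP (CPM, counts scaled to the size of the library with TMM factors over all 65 mice).

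Müller glia span the whole depth of the retina and carry out much of its housekeeping. They clear glutamate and potassium from the neuronal layers, move water, return glutamine to neurons and take part in the recycling of visual pigment. Astrocytes lie in the nerve fibre layer along the blood vessels and the axons of ganglion cells. Both cell types respond to injury and inflammation with changes in filament proteins, lipid carriers and acute phase proteins, a state known as gliosis.

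The glial genes covered a wide range of levels. Compared per transcript length, in the deposited FPKM values, 7 of the 32 averaged at least 100 FPKM over the 65 mice, 12 lay from 10 to under 100, 6 from 1 to under 10 and 7 under 1. Glul, which encodes glutamine synthetase, was the highest with a mean of 660.9 FPKM and made up 26.9% of the summed mean FPKM of the list. Clu, the gene of the extracellular chaperone clusterin or apolipoprotein J, followed with 356.7 FPKM, ahead of the lipid carrier Apoe with 248.4 FPKM and the glutamine transporter Slc38a3 with 247.8 FPKM. Dkk3, a secreted protein of the Dickkopf family, Aldoc, the brain form of aldolase, and Rlbp1, the retinaldehyde-binding protein of the visual cycle, completed the group above 100 FPKM.

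The order of neighbouring genes was checked mouse by mouse in CD. Glul was higher than Clu in 5 of 5 CD mice, but Clu was higher than Apoe in only 3 of 5. Among the 5 genes from Slc1a2 (mean 40.51 FPKM in CD) down to Vim (33.1 FPKM), each was higher than the next in only 3 of 5 mice, so this stretch of the order does not exceed the spread between mice. Pax2, a transcription factor gene of optic nerve and retinal astrocytes, and Gja1, Apod, Fabp7 and Acacb averaged under 1 FPKM. At this depth the astrocyte connexin gene Gjb6 never exceeded 1 count and was at 0 in 52 of the 65 mice, and the neurotensin receptor gene Ntsr2 was under 3 counts in 62 mice. No fold change is given for Gjb6 and Ntsr2, since 3 counts were taken as the floor.

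Across depletion and repopulation the glial genes moved little while the microglial genes fell and returned. Glul stood at 1707, 1924, 1689, 1635 and 1829 CPM in the 5 CD mice, and the group means of the 13 depletion and repopulation groups and CD ran from 1500 CPM in REPOP10 to 1784 CPM in DEP5. Slc1a3, the glutamate and aspartate transporter GLAST, stood at 170.4, 199.3, 174.7, 203 and 195.4 CPM in CD. Its lowest group mean was 163.2 CPM in REPOP60 and its highest 215.4 CPM in DEP5. These 2 groups differ in title suffix, and within RE mice the group means of Slc1a3 ran only from 195.3 CPM in DEP21 to 225.4 CPM in DEP7.

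The same held for the genes of water, potassium and pH balance. Aqp4, the water channel of Müller cell endfeet, stood at 106.2 and 121.9 CPM in the 2 re mice of CD and at 155.2, 160.6 and 161.3 CPM in its 3 RE mice, so the 2 suffixes did not overlap within the control group itself. Among RE mice the group means of Aqp4 ran from 136.7 to 168.3 CPM. Kcnj10, the inwardly rectifying potassium channel Kir4.1, ran from 91.3 to 106 CPM and Car14, a membrane carbonic anhydrase, from 55.1 to 67 CPM on the same basis.

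Vim, the gene of the intermediate filament vimentin that rises in gliosis, was among the steadiest. It stood at 87.1, 88.2, 90.45, 89.1 and 92.8 CPM in CD, its RE group means ran from 88.2 CPM in REPOP21 to 100.5 CPM in REPOP10, and its re mice without LPS ran from 84.6 to 99.6 CPM. The transcription factor genes Sox2 and Sox9 spanned 27.3 to 32.5 CPM and 23.6 to 29.1 CPM over the RE groups. Dkk3 had the narrowest span, with a ratio of 1.07 between its highest and lowest RE group mean, and Gja1, which encodes the gap junction protein connexin 43, had the widest among genes above the floor, with a ratio of 7.32.

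**Figure D1:**
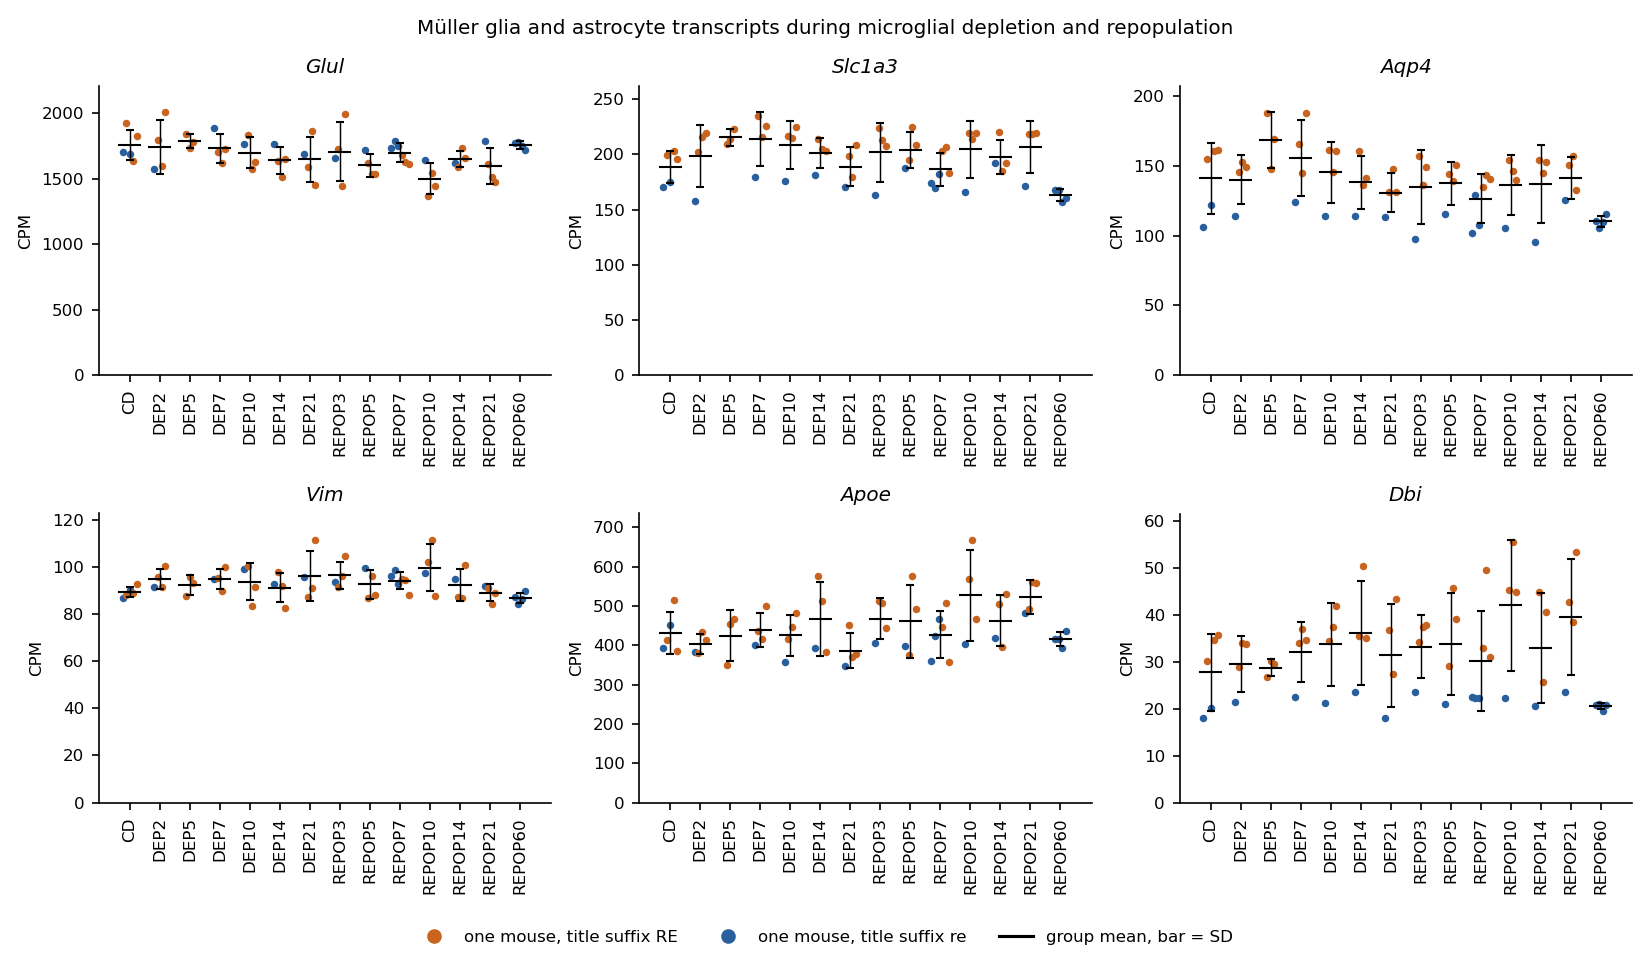
Level in CPM (y axis, linear from 0) of 6 glial genes in each mouse of CD and of the 13 depletion and repopulation groups (x axis), coloured by title suffix, with the group mean and SD. Glul and Vim show no separation by suffix, while the re mice lie below the RE mice in Aqp4 and Dbi, where REPOP60, a group of re mice only, averages 110.1 and 20.5 CPM.

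Each comparison was fitted over all genes with edgeR's quasi-likelihood test, with the group and the title suffix as terms, and a gene passed at a Benjamini-Hochberg adjusted p under 0.05 over all genes tested. For the 23 mice of the 6 depletion groups against CD, 0 of 32 glial genes passed, while 0.223% of all genes tested passed. At an unadjusted p under 0.05 there were 3 of 32 (5.88% of all genes), and DESeq2 also gave 0. The median log2 fold change of the glial genes was -0.02, beside -0.01 over all genes, and their median standard error was 0.067. The lowest adjusted p in this comparison belonged to a gene under the floor (Ntsr2, 0.712). Gfap was higher in the depletion groups than in CD by 0.74 ± 0.11 (log2 fold change ± SE, adjusted p = 1.26e-04, edgeR), and it was the only one of 35 tested genes on a list of reactive glia genes to pass.

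REPOP3 to REPOP10, the groups taken before or during the first return of microglia, showed 0 of 31 tested glial genes past the threshold against CD (0.136% of all genes, 4 glial genes and 7.82% of all genes at an unadjusted p under 0.05, 0 glial genes with DESeq2). Gfap was higher there by 0.78 ± 0.15 (adjusted p = 0.0159, edgeR). REPOP14 to REPOP60, the groups with microglia back, showed 0 of 32 against CD (0.0508% of all genes, 3 glial genes and 9.37% of all genes at an unadjusted p under 0.05, 0 glial genes with DESeq2). Gfap then stood 0.36 ± 0.12 above CD (adjusted p = 0.439, edgeR). The Gfap call of REPOP3 to REPOP10 held in 3 of 8 alternative settings and with 19 of 23 mice left out. These comparisons share the CD mice, so they are not independent of each other.

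A comparison without the CD mice set REPOP14 to REPOP60 against the depletion groups. Again 0 of 32 glial genes passed (0.318% of all genes, 6 glial genes and 9.43% of all genes at an unadjusted p under 0.05, 0 glial genes with DESeq2), whereas all 15 microglial genes rose. Apoe, which microglia as well as macroglia express, missed the threshold narrowly, with 0.19 ± 0.047 (adjusted p = 0.0507, edgeR). It passed in 1 of 8 alternative settings, which gave log2 fold changes from 0.14 to 0.21. With 1 mouse left out it passed in 2 of 12 fits, those without REPOP14 replicate 3 and without REPOP21 replicate 2. Its lowest adjusted p there was 0.00577 (edgeR). Gfap was lower by -0.38 ± 0.090 in the same comparison (adjusted p = 0.0417, edgeR), a call that held in 4 of 8 alternative settings and with 6 of 12 mice left out.

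Taken one group at a time against CD, 11 of the 13 depletion and repopulation groups showed 0 glial genes past the threshold, with 0 to 5 glial genes and 3.22% to 8.20% of all genes in each at an unadjusted p under 0.05. DESeq2 gave 0 glial genes in these 11 groups as well. The DEP2, DEP5 and DEP7 fits called 0.109%, 0.0646% and 0.108% of all genes, and those of DEP10, DEP14 and DEP21 called 0.0960%, 0.0670% and 0.139%. The fits of REPOP3, REPOP5 and REPOP7 called 0.0629%, 0.0756% and 0.0890%, that of REPOP14 called 0.0125% and that of REPOP60 called 0% (779 genes at an unadjusted p under 0.05, 0 with DESeq2). REPOP10 and REPOP21 were the exceptions, with 2 of 31 tested glial genes each, beside 0.365% and 1.90% of all genes.

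In REPOP10 the genes that passed were Gja1 and Dbi. Gja1 stood at 1.94, 1.66, 1.06, 2.32 and 2.47 CPM in CD and at 2.47, 10.9, 15.7 and 2.09 CPM in REPOP10 (log2 fold change 1.83 ± 0.37, adjusted p = 0.0234, edgeR). Replicates 2 and 3 carried the difference, and the other two mice lay within the CD range or at its upper end. Mice with more than 5 CPM of Gja1 were also found in DEP2, DEP7, DEP14, REPOP7 and REPOP21, 9 of the 58 mice without LPS in all.

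Retinal pigment epithelium, which adheres to the retina when it is dissected, also expresses Gja1. The summed level of 10 pigment epithelium genes was 37.3, 42.7, 54.8 and 16.9 CPM in the 4 REPOP10 mice and 8 to 26.1 CPM in CD. Over the 39 RE mice without LPS, Gja1 rose with this sum (Pearson r = 0.639, permutation p = 0.00015, adjusted p = 0.0003; Spearman rho = 0.441, permutation p = 0.0051, adjusted p = 0.01). Without the 2 mice farthest from the median sum, r was 0.38. Over the 19 re mice r was 0.464 (permutation p = 0.045, adjusted p = 0.068) and rho 0.475 (permutation p = 0.041, adjusted p = 0.061), and r was 0.619 without the 2 farthest mice. The share of pigment epithelium in the Gja1 difference was not tested.

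Dbi, the gene of the acyl-CoA-binding protein also called diazepam-binding inhibitor, stood at 22.3, 45.3, 55.4 and 44.9 CPM in REPOP10 and at 23.6, 42.6, 38.5 and 53.4 CPM in REPOP21. In CD it stood at 18.1 and 20.2 CPM in the re mice and at 30.1, 34.55 and 35.7 CPM in the RE mice, so all 3 RE mice of each of these repopulation groups lay above all CD mice. The log2 fold change was 0.45 ± 0.099 in REPOP10 (adjusted p = 0.0445, edgeR) and 0.38 ± 0.097 in REPOP21 (adjusted p = 0.0390, edgeR).

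Slc38a3, which exports glutamine from glia, was the only glial gene that was lower in a single group. It stood at 712, 561, 535 and 459 CPM in REPOP21 and at 638 to 778.5 CPM in CD (log2 fold change -0.34 ± 0.073, adjusted p = 0.0194, edgeR), with the 3 RE mice of REPOP21 below all CD mice. Gfap was higher by 0.91 ± 0.16 in REPOP10 (adjusted p = 0.00450, edgeR) and by 0.64 ± 0.15 in REPOP21 (adjusted p = 0.0258, edgeR).

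These 4 calls were fragile, although the fold changes moved less. With DESeq2 only that of Slc38a3 remained, and without CD replicate 2, 3 or 4, the RE mice of CD, none of the 4 remained. With each CD mouse left out in turn the log2 fold change of Gja1 ran from 1.65 to 2.02, that of Dbi from 0.39 to 0.48 in REPOP10 and from 0.34 to 0.42 in REPOP21, and that of Slc38a3 from -0.37 to -0.26. The replicate number was also used as a block in place of the suffix term, although numbers do not mark shared animals. That gave 12 pairs of gene and group past the threshold in place of 4, among them Aqp4, Dbi and Nes in REPOP60. The share of all genes is not given for these fits, so the 12 pairs do not show a change particular to glial genes. REPOP60 holds re mice only.

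The rod photoreceptor content of the library moved with Dbi and Slc38a3. The summed level of 10 rod genes was 43700 to 49660 CPM in the 3 RE mice of REPOP21 and 50990 to 58600 CPM in those of CD. Over the 39 RE mice Dbi fell as the rod sum rose (r = -0.68, permutation p = 1e-05, the smallest it can give, adjusted p = 3e-05; rho = -0.709, r = -0.666 without the 2 farthest mice), and Slc38a3 rose with it (r = 0.827, permutation p = 1e-05, adjusted p = 3e-05; rho = 0.83, r = 0.817 without the 2 farthest mice). For both genes rho had the same permutation and adjusted p as r. Among the 19 re mice without LPS, whose rod sums spanned a narrower range than those of the RE mice, neither relation passed. There r was -0.364 for Dbi (permutation p = 0.12, adjusted p = 0.12; rho = -0.307, permutation p = 0.2) and -0.0217 without the 2 farthest mice. For Slc38a3 r was -0.422 (permutation p = 0.072, adjusted p = 0.086; rho = -0.363, permutation p = 0.13), opposite in sign to that of the RE mice, and -0.28 without the 2 farthest mice. In all, 6 relations were computed, the CPM values of a mouse share 1 library total, and the part of rod content in the group differences was not tested.

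**Figure D2:**
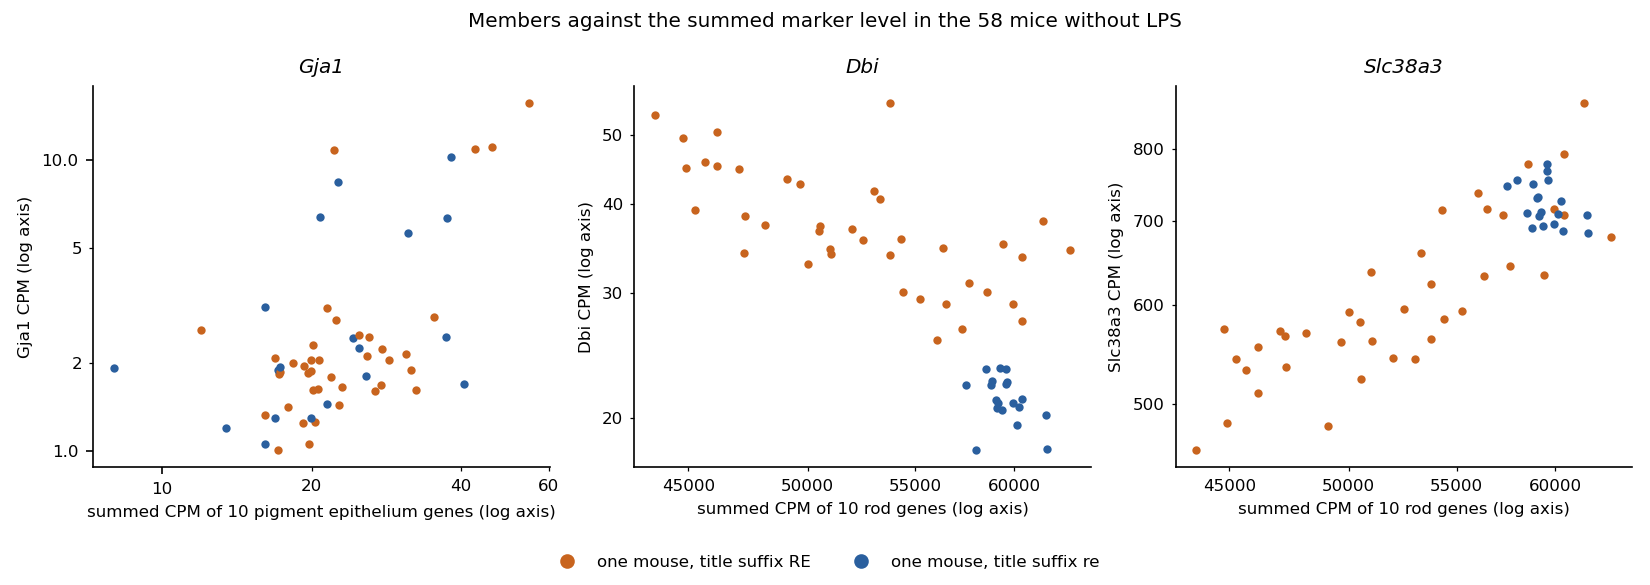
CPM of Gja1, Dbi and Slc38a3 (y axes, log) against the summed CPM of 10 pigment epithelium or 10 rod genes (x axes, log) in the 58 mice without LPS, 1 point a mouse, coloured by title suffix. Among RE mice Gja1 rises with the pigment epithelium sum (r = 0.639), Dbi falls with the rod sum (r = -0.68) and Slc38a3 rises with it (r = 0.827), while the re mice form a tight group at high rod sums.

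With only the compared groups in each fit, more glial genes passed between LPSREPOP and REPOP60 than in any other comparison of treatments. The order was the reverse in the fit of all 16 groups, where more glial genes passed in LPSCD against CD. Between LPSREPOP and REPOP60, all of them re mice, 10 of 32 glial genes passed (2.92% of all genes), 9 of them higher in LPSREPOP (1.87% of all genes) and 1 lower (1.05%). The 10 were Vim, Aldh1l1, Clu, Hes1, Ndrg2, Prdx6, Gja1, Apod and Car14, which rose, and Rlbp1, which fell. The median log2 fold change of the glial genes was 0.18, beside -0.01 over all genes. When the adjusted p had to be under 0.01 and the log2 fold change beyond 1 in either direction, there were 3 (0.437% of all genes), namely Aldh1l1, Gja1 and Apod.

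The promoters of 4 of these genes are shown because the genes moved after LPS in both directions. They are the 250 bases before and 50 bases after the transcription start from RefSeq on GRCm38.p6, 5′ to 3′ on the strand of the gene, with motif matches in capitals. Vim (ENSMUSG00000026728, chr2:13573927-13582826, plus strand) is shown at chr2:13574061-13574360 and Rlbp1 (ENSMUSG00000039194, chr7:79374870-79387048, minus strand) at chr7:79386978-79387277. Aldh1l1 (ENSMUSG00000030088, chr6:90486427-90600203, plus strand) is shown at chr6:90550543-90550842, inside the annotated gene as that of Vim also is, and Gja1 (ENSMUSG00000050953, chr10:56377330-56402513, plus strand) at chr10:56377050-56377349.
Vim: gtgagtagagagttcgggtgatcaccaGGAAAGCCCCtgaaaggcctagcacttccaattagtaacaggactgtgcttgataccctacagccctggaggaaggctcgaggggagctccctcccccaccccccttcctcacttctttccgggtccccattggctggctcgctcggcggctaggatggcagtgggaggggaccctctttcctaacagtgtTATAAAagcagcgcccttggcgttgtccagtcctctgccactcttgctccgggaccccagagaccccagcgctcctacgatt
Rlbp1: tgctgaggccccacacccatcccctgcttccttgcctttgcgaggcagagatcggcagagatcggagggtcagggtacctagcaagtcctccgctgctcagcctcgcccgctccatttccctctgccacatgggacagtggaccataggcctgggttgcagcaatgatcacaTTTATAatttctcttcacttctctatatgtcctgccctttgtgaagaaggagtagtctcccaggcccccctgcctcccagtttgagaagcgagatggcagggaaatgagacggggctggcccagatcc
Aldh1l1: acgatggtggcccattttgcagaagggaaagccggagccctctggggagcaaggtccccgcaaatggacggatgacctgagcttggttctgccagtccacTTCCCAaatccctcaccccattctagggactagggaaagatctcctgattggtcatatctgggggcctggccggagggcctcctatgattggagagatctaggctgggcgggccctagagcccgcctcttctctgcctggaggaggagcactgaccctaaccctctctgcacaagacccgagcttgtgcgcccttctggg
Gja1: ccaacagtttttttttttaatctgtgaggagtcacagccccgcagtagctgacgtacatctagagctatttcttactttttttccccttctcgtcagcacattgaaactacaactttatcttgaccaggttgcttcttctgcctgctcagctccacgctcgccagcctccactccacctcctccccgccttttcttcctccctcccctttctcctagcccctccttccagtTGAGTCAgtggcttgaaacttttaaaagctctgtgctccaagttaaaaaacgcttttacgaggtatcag

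Each promoter was searched on both strands for motifs of factors active in inflammation or in Notch signalling, with N for any base. The Vim window holds the consensus of NF-kappaB, a mediator of the response to LPS, in the first run of capitals, starting at base -223 from the transcription start. It was the only one of the 25 glial genes with a promoter in the table to hold it, and 1.63% of 32851 promoters hold it. The TATA box letters, searched as TATAAA, start at -32 in Vim on the strand shown and at -78 in Rlbp1 on the opposite strand only, where they read TTTATA in the window, and a match on either strand was in 6 of 25 glial windows and 13.6% of all promoters. The Aldh1l1 window holds the RBPJ motif of the Notch pathway, searched as TGGGAA, at -150 (9 of 25 glial windows, 25.6% of all promoters). The Gja1 window holds the AP-1 motif, searched as TGANTCA, at -19 (1 of 25, 7.81%). The STAT motif, searched as TTCNNNGAA, was in 4 of 25 windows, none of them of a gene that passed between LPSREPOP and REPOP60, and in 8.3% of all promoters. These matches describe letters only.

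The filament gene Vim had the smallest adjusted p of the list. It stood at 87.3, 84.6, 86.4 and 89.7 CPM in REPOP60 and at 137.2, 158.7, 161.5 and 123.9 CPM in LPSREPOP, a log2 fold change of 0.74 ± 0.069 (adjusted p = 1.46e-07, edgeR). Every LPSREPOP mouse was above every REPOP60 mouse, and above every mouse of the time course as well, where the highest value was 111.7 CPM. Nes, the gene of nestin, a filament of progenitors and reactive glia, stood at 2.86 to 6.81 CPM in REPOP60 and 6.30 to 8.89 CPM in LPSREPOP, with overlapping ranges (0.56 ± 0.20, adjusted p = 0.150, edgeR).

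Among the metabolic enzymes, Aldh1l1, a folate enzyme used as a general astrocyte marker, stood at 13.8, 10.6, 13.1 and 11.45 CPM in REPOP60 and at 21.2, 32.35, 31.4 and 18.1 CPM in LPSREPOP. The groups did not overlap (1.07 ± 0.15, adjusted p = 5.77e-05, edgeR). Prdx6, a peroxiredoxin that reduces lipid peroxides, stood at 83.9 to 91.1 CPM in REPOP60 and rose to 106, 115.5, 112 and 99.5 CPM (0.32 ± 0.060, adjusted p = 0.00168, edgeR). Acacb, the mitochondrial form of acetyl-CoA carboxylase, was higher in every LPSREPOP mouse (4.98 to 10.2 CPM) than in REPOP60 (3.59 to 4.85 CPM) but did not pass (0.66 ± 0.21, adjusted p = 0.0888, edgeR). Aldoc stood 0.15 ± 0.054 above REPOP60 (adjusted p = 0.172, edgeR).

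Of the lipid carriers, Clu (chr14:65968483-65981547) stood at 487, 502, 503 and 501 CPM in REPOP60 and at 701, 888, 821 and 537 CPM in LPSREPOP (0.56 ± 0.089, adjusted p = 3.07e-04, edgeR). Replicate 4 of LPSREPOP was closest to REPOP60 but still above it. Apod, the lipocalin apolipoprotein D, stood at 0.655, 0.779, 0.389 and 1.73 CPM in REPOP60 and at 3.02, 3.35, 2.78 and 2.05 CPM in LPSREPOP, also without overlap (1.64 ± 0.34, adjusted p = 0.00477, edgeR). Its median over the 65 mice was 7 counts, with 3 mice under the floor, so its values lie near the floor. Apoe and Dbi overlapped between the groups, with differences of 0.10 ± 0.058 (adjusted p = 0.440, edgeR) and 0.12 ± 0.10 (adjusted p = 0.649, edgeR).

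The gap junction gene Gja1 showed the largest fold change and the widest spread. It stood at 1.70, 1.30, 1.30 and 1.20 CPM in REPOP60 and at 4.59, 5.93, 7.84 and 1.41 CPM in LPSREPOP (1.83 ± 0.35, adjusted p = 0.00210, edgeR). Replicate 4 lay within the REPOP60 range. The pigment epithelium sum overlapped between the groups, at 40.6, 20, 16.9 and 13.4 CPM in REPOP60 and 16.65, 17.3, 40.5 and 16 CPM in LPSREPOP. Within each group the sum and Gja1 put the mice in the same order. The share of pigment epithelium in this difference was not tested.

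Hes1, a transcriptional repressor downstream of Notch, was the only transcription factor gene on the list to pass. It stood at 10.9, 13.5, 8.30 and 11.3 CPM in REPOP60 and at 16.4, 18.3, 21.1 and 19.5 CPM in LPSREPOP (0.77 ± 0.13, adjusted p = 4.60e-04, edgeR), without overlap. Sox2 and Sox9, which maintain the identity of Müller glia, differed by 0.08 ± 0.088 (adjusted p = 0.746, edgeR) and -0.09 ± 0.086 (adjusted p = 0.712, edgeR). Ndrg2, a cytosolic protein of astrocytes, stood at 87 to 90.6 CPM in REPOP60 and at 123, 146.9, 124.7 and 94.6 CPM in LPSREPOP (0.45 ± 0.083, adjusted p = 0.00151, edgeR).

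Rlbp1 fell, in contrast to the other genes that passed. It stood at 298.8, 300, 294.9 and 290.6 CPM in REPOP60 and at 196.8, 140.6, 192.3 and 268 CPM in LPSREPOP, every mouse below every REPOP60 mouse (-0.57 ± 0.10, adjusted p = 0.00112, edgeR). The product of Rlbp1 carries 11-cis retinoids in Müller glia and pigment epithelium. Over the same comparison 0 of the 10 pigment epithelium genes (0 at an unadjusted p under 0.05, edgeR) and 1 of the 10 rod genes passed, and of the 8 cone genes Arr3 and Pde6h fell, by 0.56 and 0.46 on the log2 scale, and Opn1mw rose by 0.32.

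Of the genes of glutamate handling and of ion and water balance, only Car14 passed. Glul stood above REPOP60 in every LPSREPOP mouse (1836 to 2071 against 1716 to 1780 CPM) but did not pass (0.14 ± 0.050, adjusted p = 0.155, edgeR). Slc1a3 and Slc1a2 differed by -0.11 ± 0.053 (adjusted p = 0.376, edgeR) and -0.01 ± 0.054 (adjusted p = 0.986, edgeR), Aqp4 by 0.07 ± 0.065 (adjusted p = 0.716, edgeR) and Kcnj10 by -0.16 ± 0.083 (adjusted p = 0.407, edgeR). Car14 passed (0.26 ± 0.071, adjusted p = 0.0422, edgeR), at 61.6, 71.9, 60.45 and 62 CPM in REPOP60 and 73.4, 85.8, 76.9 and 70.8 CPM in LPSREPOP, where REPOP60 replicate 2 overlapped the LPS mice. Among the secreted and surface proteins Mfge8, which bridges dying cells to phagocytes, stood at 302.3 to 321.7 CPM in REPOP60 and 328.9 to 421.3 CPM in LPSREPOP and missed the threshold narrowly (0.22 ± 0.062, adjusted p = 0.0511, edgeR). Dkk3 (0.14 ± 0.050), the hyaluronan receptor gene Cd44 (0.30 ± 0.14), Gpr37 (0.05 ± 0.061), the calcium-binding protein gene S100b (0.08 ± 0.21), Slc38a3 (0.10 ± 0.049), Pax2 (0.51 ± 0.39) and Fabp7 (0.58 ± 0.56) did not pass.

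In all, 12 of 32 glial genes were higher in every LPSREPOP mouse than in every REPOP60 mouse (3.98% of all genes tested). With Rlbp1, which was lower in every LPSREPOP mouse, 13 of 32 did not overlap in either direction (7.98% of all genes). Vim, Aldh1l1, Clu, Hes1 and Prdx6 passed in all 6 alternative settings and with each of the 8 mice left out. The other calls depended on more. Car14 was lost with DESeq2, in the fit of all 16 groups, with edgeR's own expression filter and without any of 6 mice (LPSREPOP replicates 1, 2 and 3, REPOP60 replicates 1, 3 and 4; log2 fold change 0.20 to 0.28). Rlbp1 was lost with DESeq2 (-0.57), Gja1 in the fit of all 16 groups (1.83) and without REPOP60 replicate 4 (1.77), Ndrg2 without REPOP60 replicate 4 (0.45) and Apod without REPOP60 replicate 3 (1.40).

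**Figure D3:**
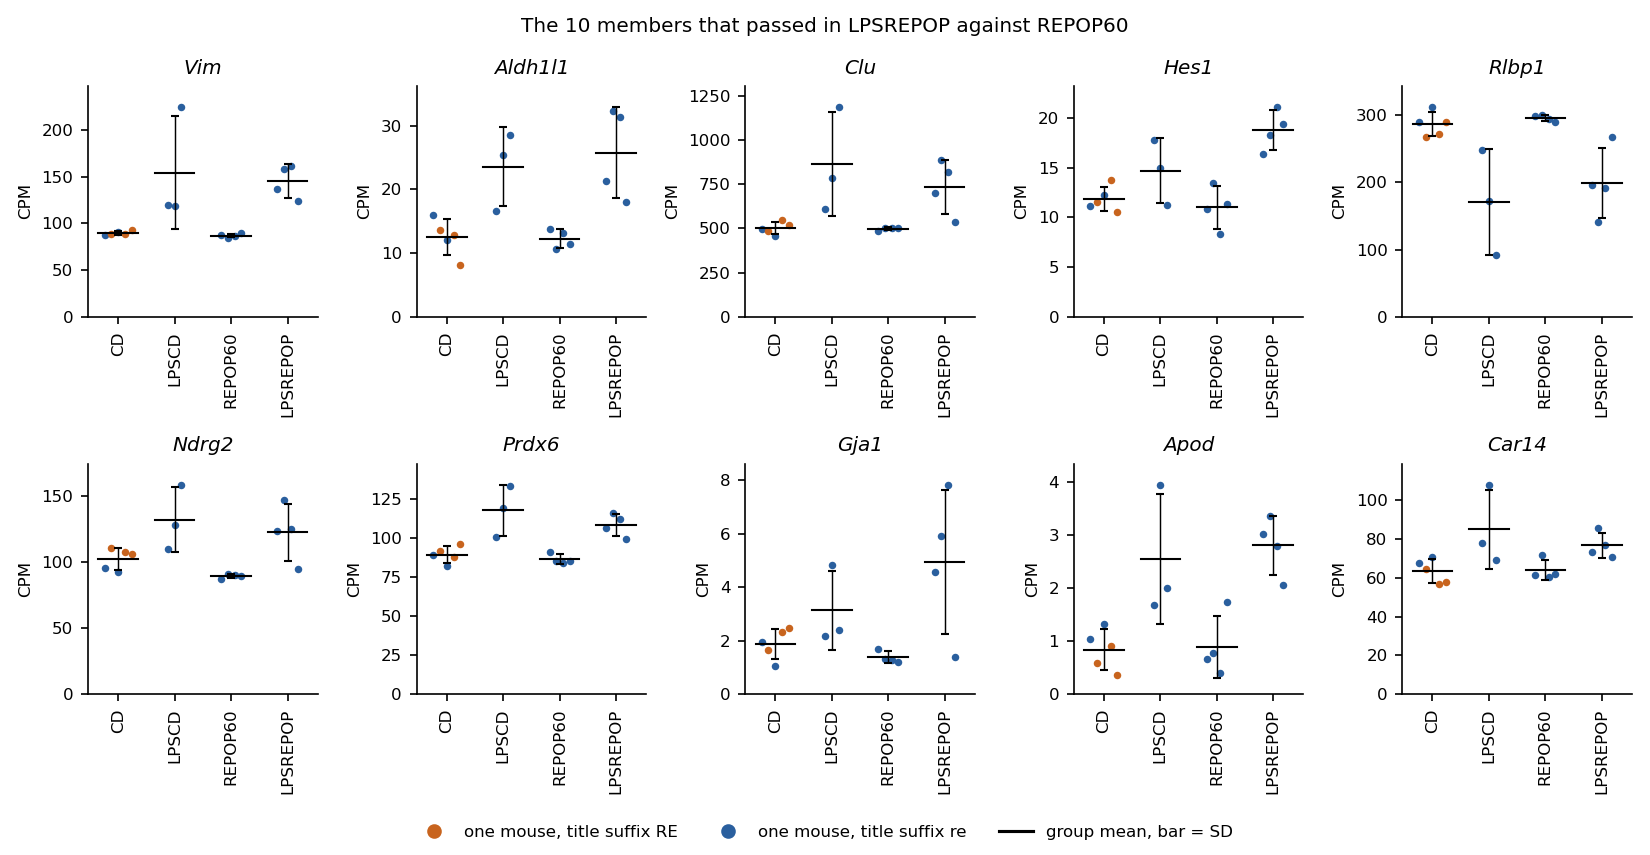
CPM (y axes, linear from 0) of the 10 glial genes that passed between LPSREPOP and REPOP60, in each mouse of CD, LPSCD, REPOP60 and LPSREPOP, with the group mean and SD and the points coloured by title suffix. Vim lies between 84.6 and 89.7 CPM in REPOP60 and between 123.9 and 161.5 CPM in LPSREPOP, Rlbp1 is lower in both LPS groups, and in LPSCD Vim stands at 118.8, 119.9 and 225 CPM.

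Other glial genes moved in the same comparison. Of 36 further Müller glia and astrocyte genes 7 passed, all higher, among them the metallothionein genes Mt1 (1.06), Mt2 (1.25) and Mt3 (0.59 on the log2 scale). Of 35 tested reactive glia genes 11 passed, all higher, and those of smallest adjusted p were the acute phase genes Serpina3n (3.69) and Lcn2 (3.61), the complement inhibitor gene Serping1 (1.57) and the class I gene H2-D1 (0.65). Gfap rose by 1.08 ± 0.29 (adjusted p = 0.0410, edgeR), at 7.47, 8.05, 11.4 and 11.3 CPM in REPOP60 and 6.95, 36, 26.3 and 11.5 CPM in LPSREPOP, where replicate 1 lay below the REPOP60 range and replicate 4 just above it. Its call held in 3 of 6 alternative settings and with 2 of 8 mice left out.

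Genes of other cells moved as well. Of 15 microglial genes 6 rose, C1qb by 1.92, C1qa and C1qc by 1.34 and Ctss by 1.16, and of 7 endothelial genes 4 rose, Cldn5 by 1.51. The pericyte gene Rgs5 rose by 0.58, the ganglion cell genes Nefh and Nefm fell by 0.32 and 0.20, and the haemoglobin gene Hbb-bs fell by 2.89. The summed level of the 32 glial genes was 6349 to 6446 CPM in REPOP60 and 6920 to 7239 CPM in LPSREPOP, and the part of the other cell types in these differences was not tested.

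Against CD, LPS in the presence of resident microglia gave 0 of 31 tested glial genes past the threshold (0.0466% of all genes), with 13 glial genes and 10.5% of all genes at an unadjusted p under 0.05 and 0 glial genes with DESeq2. The median log2 fold change was 0.20 over the glial genes and 0.01 over all genes. Acacb stood at 2.45 to 3.30 CPM in CD and at 5.42, 9.67 and 11.2 CPM in LPSCD (1.42 ± 0.31, adjusted p = 0.157, edgeR). Clu stood at 457.8 to 546.1 CPM in CD and at 613, 788 and 1190 CPM in LPSCD (0.85 ± 0.20, adjusted p = 0.179, edgeR).

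Vim stood at 119.9, 118.8 and 225 CPM in LPSCD, all above CD (0.80 ± 0.22, adjusted p = 0.235, edgeR). Rlbp1 stood at 248.8, 172.4 and 91.2 CPM, all below CD, where it was 268.1 to 312.7 CPM (-0.82 ± 0.25, adjusted p = 0.289, edgeR). Slc1a3 stood at 147.7, 116.3 and 124.3 CPM, also below all CD mice (-0.42 ± 0.11, adjusted p = 0.206, edgeR). In all, 10 of 32 glial genes were higher in every LPSCD mouse than in every CD mouse (6.43% of all genes tested) and 2 were lower (5.60%).

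The count of 0 depended on the mice and on the fit. The suffix term rests on the CD mice alone, since LPSCD holds re mice only. In 1 fit of all 16 groups, 12 of 32 glial genes passed (6.43% of all genes), namely Acacb, Aldh1l1, Apod, Car14, Clu, Dbi, Dkk3, Ndrg2, Prdx6, Rlbp1, Slc1a3 and Vim. Without LPSCD replicate 1, 9 passed (5.26% of all genes). With replicate numbers as a block in place of the suffix term, 5 passed (2.69% of all genes). These were Acacb, Clu, Rlbp1, Slc1a3 and Vim, and the numbers do not mark shared animals.

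**Figure D4:**
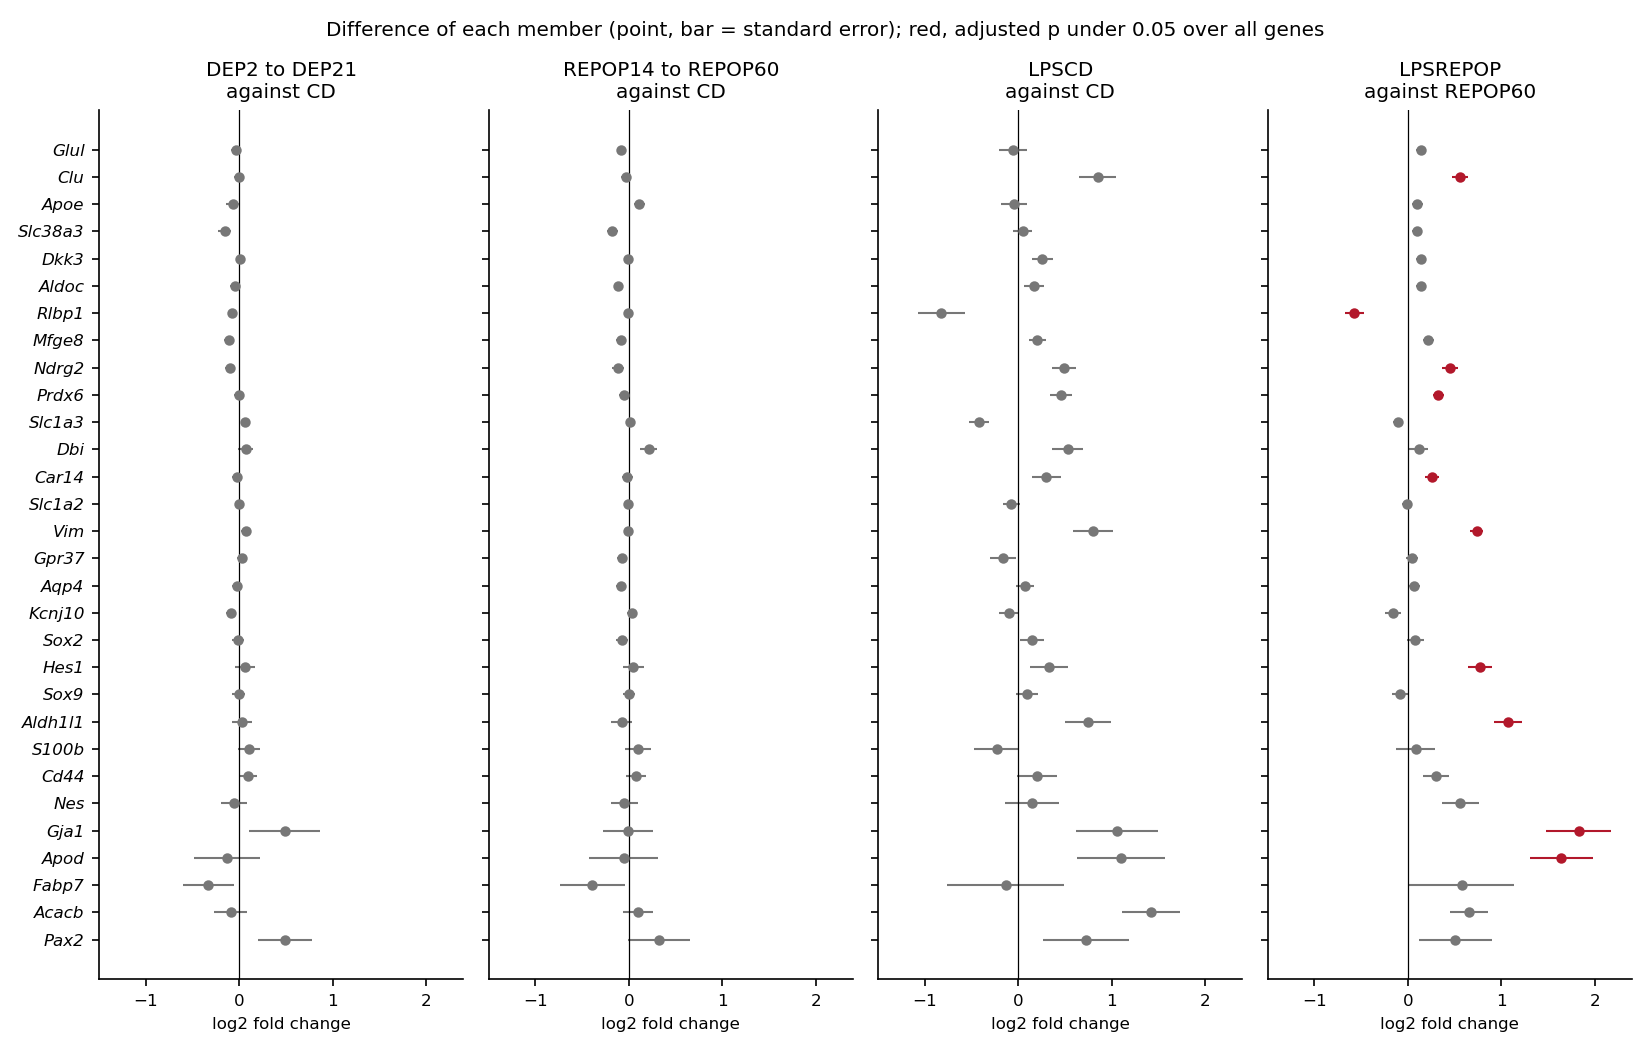
Log2 fold change (x axes; points, bars = standard error) of 30 glial genes, ordered by mean FPKM, in depletion against CD, REPOP14 to REPOP60 against CD, LPSCD against CD and LPSREPOP against REPOP60, with genes that passed in red. The genes above 1 FPKM lie near 0 in both comparisons without LPS, and 10 genes pass in LPSREPOP against REPOP60. Gjb6 and Ntsr2 are left out because they were at the floor.

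The 7 LPS mice did not respond alike. LPSCD replicate 3 had the highest Vim (225 CPM), Clu (1190 CPM), Ndrg2 (158.3 CPM) and Prdx6 (133.3 CPM) and the lowest Rlbp1 (91.2 CPM) and Hes1 (11.3 CPM). It also had the highest level of the acute phase gene Lcn2, with 104.7 CPM. LPSREPOP replicate 4 had the lowest Clu (536.9 CPM), Ndrg2 (94.6 CPM), Prdx6 (99.5 CPM) and Gja1 (1.41 CPM), the highest Rlbp1 (268 CPM) and 6.02 CPM of Lcn2. Lcn2 was also low in LPSCD replicate 1 (7.1 CPM), where CD mice had 2.26 to 4.49 CPM and the other LPS mice 19.2 to 67.9 CPM besides replicate 3. Hes1 and Car14 (69 CPM) did not follow this order, since they were lowest in the mouse with the most Lcn2. Apod (2.01 CPM) and Gja1 (2.38 CPM) were not highest there either, at rank 6 and rank 5 of 7. Vim was lowest in LPSCD replicate 2 (118.8 CPM), which had 48.1 CPM of Lcn2.

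Between LPSREPOP and LPSCD no glial gene passed (0 of 32, 0% of all genes, edgeR), with 2 glial genes and 8.05% of all genes at an unadjusted p under 0.05 and 0 with DESeq2. These were Slc1a3, which stood 0.23 ± 0.092 higher in LPSREPOP (adjusted p = 0.617, edgeR), and Hes1, which stood 0.36 ± 0.16 higher (adjusted p = 0.617, edgeR). The difference between the LPS effects, LPSREPOP minus REPOP60 less LPSCD minus CD, was tested in its own right. No glial gene passed (0 of 32, 0% of all genes, edgeR), 2 glial genes and 5.91% of all genes were at an unadjusted p under 0.05 and DESeq2 gave 0. The difference was 0.31 ± 0.11 for Slc1a3 (adjusted p = 0.804, edgeR), -0.41 ± 0.19 for Dbi (adjusted p = 0.804, edgeR) and 0.25 ± 0.27 for Rlbp1 (adjusted p = 0.906, edgeR). Differences of this size between retinas with resident and with repopulated microglia were not detectable with these standard errors. Without LPSCD replicate 1, Slc1a3 passed in the first comparison (0.34) and Slc1a3 (0.42) and Rlbp1 (0.63) in the second.

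The glial genes were also compared by title suffix. Over the 65 mice, with the group as a term, 16 of 32 differed between re and RE (45.5% of all genes), 7 of them higher in re (23.7% of all genes) and 9 lower (21.8%). The share of glial genes is thus close to that of all genes. The median log2 fold change was 0.02 over the glial genes and 0.04 over all genes.

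The transcription factor gene Sox9 was higher in re mice by 0.44 ± 0.044 (adjusted p = 9.57e-14, edgeR), with 28.3 to 39 CPM in re and 20.1 to 33.4 CPM in RE. Sox2 was lower by 0.20 on the log2 scale (-0.20 ± 0.038, adjusted p = 1.08e-05, edgeR). Dbi was lower by -0.80 ± 0.064 (adjusted p = 1.98e-17, edgeR), with 18.1 to 33.6 CPM in re and 25.8 to 55.4 CPM in RE. In the re mice without LPS it ran from 18.1 to 23.6 CPM, which did not overlap the RE mice. Aqp4 was lower by -0.40 ± 0.036 (adjusted p = 1.71e-15, edgeR), and its ranges of 95.1 to 129 CPM in re and 131.1 to 187.9 CPM in RE did not overlap.

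Fabp7, a fatty acid-binding protein of glial progenitors, had the largest difference (-1.66 ± 0.25, adjusted p = 2.66e-08, edgeR), although it averaged under 1 FPKM. It was under 3 counts in 11 of the 65 mice, so its values lie near the floor. Nes (-0.69 ± 0.11), Kcnj10 (-0.20 ± 0.035), Slc1a3 (-0.24 ± 0.029), Apoe (-0.19 ± 0.051) and S100b (-0.30 ± 0.087) were also lower. Acacb (0.61 ± 0.11), Slc38a3 (0.25 ± 0.049), Car14 (0.18 ± 0.038), Mfge8 (0.18 ± 0.038), Aldh1l1 (0.25 ± 0.075) and Gpr37 (0.11 ± 0.036), which encodes an orphan receptor of glia, were higher. Glul, Clu, Dkk3, Rlbp1 and Vim did not pass, with Vim at 0.03 ± 0.044.

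Markers of other cells were measured beside the suffix. The number of genes that passed was 9 of 36 reactive glia genes, 26 of 36 further Müller glia and astrocyte genes, 2 of 15 microglial genes, 5 of 10 rod, 7 of 8 cone, 6 of 8 bipolar, 8 of 8 amacrine, 6 of 8 ganglion cell and 2 of 4 horizontal cell genes. It was 1 of 10 pigment epithelium, 1 of 7 lens, 1 of 7 endothelial, 3 of 5 pericyte, 0 of 6 oligodendrocyte (0 at an unadjusted p under 0.05) and 2 of 5 blood genes.

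The summed levels of most of these lists overlapped between the suffixes. The rod sum was 43700 to 63050 CPM in RE (median 52520) and 48520 to 61780 CPM in re (median 59070), the bipolar sum 1663 to 2086 and 1621 to 1800 CPM and the sum of the 32 glial genes 5699 to 7184 and 6129 to 7239 CPM. That of the further Müller glia and astrocyte genes was 3856 to 5126 and 4653 to 5188 CPM, of reactive glia genes 593.9 to 731.1 and 553.7 to 1586 CPM and of microglial genes 20.2 to 86.8 and 26.7 to 150.5 CPM. The cone sum was 955.9 to 1190 and 721.2 to 1213 CPM, the amacrine sum 1110 to 1301 and 1097 to 1288 CPM and the ganglion cell sum 1190 to 1575 and 1024 to 1366 CPM. The horizontal cell sum did not overlap, with 84.6 to 117.5 CPM in RE and 61.6 to 80.5 CPM in re.

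The remaining lists overlapped too. Pigment epithelium summed to 12 to 54.8 CPM in RE and 8 to 40.6 CPM in re, lens to 0.871 to 40.2 and 0.768 to 54.95 CPM, endothelium to 314.7 to 461.7 and 355.6 to 439.7 CPM and pericytes to 101.3 to 130.5 and 76.3 to 126.5 CPM. Oligodendrocyte genes summed to 42.7 to 55.1 and 44.4 to 66.8 CPM and blood genes to 4.77 to 24.8 and 0.262 to 9.09 CPM. The LPS mice and REPOP60 are re mice only, and for these groups the suffix and the group cannot be told apart in a comparison with RE mice.

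**Figure D5:**
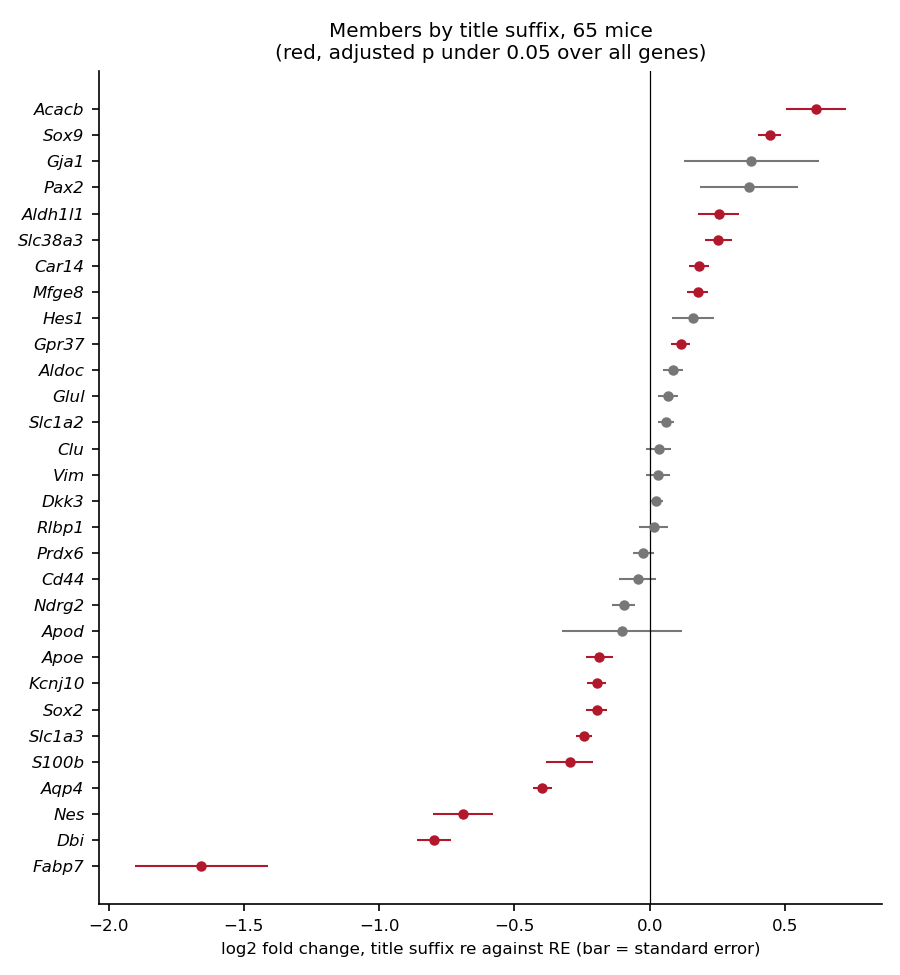
Log2 fold change (x axis; points, bars = standard error) between mice with title suffix re and RE for 30 glial genes over 65 mice, with genes that passed in red. Values run from -1.66 for Fabp7 to 0.61 for Acacb, 7 genes pass above 0 and 9 below, and Vim, Clu, Dkk3 and Rlbp1 lie near 0.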

How the data were processed

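Per the labels, libraries were made from poly-A RNA of retinal homogenate. The authors aligned reads to mm10 with HISAT2 and deposited counts per gene (HTSeq, not normalised) and FPKM values (StringTie). Tool versions and the strand setting are not given in the sources used here, so reads of overlapping or antisense genes cannot be told apart. Genes were placed with GENCODE M21 on GRCm38. The counts hold 50686 genes, 50376 with a symbol.

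The counts were analysed with edgeR 4.0.16 in R 4.3.3 (TMM, quasi-likelihood F test, Benjamini-Hochberg adjustment over all genes tested). Genes entered a test if they were counted at least 1 time in at least 0.5 of the mice of any compared group. Only compared groups entered a fit, with group and title suffix as terms, because the additive batch model described for the study does not name its batches. A standard error is the log2 fold change divided by the root of F. Pooled comparisons average group coefficients. Permutation tests were two-sided with 100000 resamples and used Python 3.11.15, scipy 1.17.1, numpy 2.4.6 and pandas 2.3.3, and figures used matplotlib 3.10.9. Fits were tested on counts simulated with a fixed dispersion and no suffix effect, where only well-counted genes changed. That test does not cover genes near the floor or a wide spread between mice.

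The genes, lists and tests were chosen with earlier results of these data known. Each comparison names the glial genes that passed (at most 10), Gfap, and a few genes of each role, and at most 4 genes of another list. Others were named after their values were seen, because they missed the threshold narrowly or overlapped none of the controls. Alternatives were DESeq2 1.42.0, RLE normalisation, filterByExpr, no filter, all 16 groups in 1 fit, no suffix, 1 suffix alone, a replicate block, an adjusted p under 0.01 with an absolute log2 fold change above 1, and leaving out mice. The replicate block took the place of the suffix term. Levels were recomputed as log2(FPKM + 1) and log2(CPM + 0.1). Replicates are different mice, and counting error alone sets the floor of 3 counts. A gene of another list is not reported here.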

Additional observations from a re-analysis of the deposited data

Results flagged for a closer look

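The 12 glial genes that passed in a comparison of treatments were checked for single mice far from their group. The check covered 60 combinations of gene and group of at least 4 mice, not every such group of the series. In 4 of the 60, from 3 mice, 1 mouse stood apart, where chance gives about 1 in 20. Gja1 in DEP14 is not among these 4, although replicate 2 had 11.1 CPM and the others 1.64 to 2.26 CPM. Car14 was 71.9 CPM in REPOP60 replicate 2, while the other three mice had 60.45 to 62 CPM, a gap of 0.862 of the range. Clu was 487.2 CPM in REPOP60 replicate 1, just below the 501 to 502.7 CPM of the others (0.892 of the range). Prdx6 was 91.1 CPM in the same mouse, above the 83.9 to 85.1 CPM of the others (0.842 of the range). Hes1 was 16.2 CPM in REPOP10 replicate 3 and 10.7 to 11 CPM in the others (0.928 of the range), and that mouse also had the highest Gja1 of the series, 15.7 CPM. The REPOP60 gaps are small beside the LPS differences of Clu and Prdx6, and Car14 was the gene whose call was lost most often.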

How the results depend on the processing

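None of the single-gene values checked under the alternatives changed sign. Pairs of gene and single group that passed only under an alternative were not among those checked. Depletion against CD kept 0 glial genes in all alternatives, with each of 28 mice left out as well. Without a gene filter, 1 glial gene passed in REPOP3 to REPOP10 against CD (Gja1), 1 in REPOP14 to REPOP60 against CD (Slc38a3), 2 in REPOP14 to REPOP60 against depletion (Apoe and Gja1), 9 in LPSCD against CD and 15 pairs of gene and group over the 13 single groups, in place of 0, 0, 0, 0 and 4. With the replicate block, which takes the place of the suffix term, 1 gene passed in REPOP14 to REPOP60 against depletion (Aqp4, -0.19). The block gave 5 in LPSCD against CD (2.69% of all genes), 13 in LPSREPOP against REPOP60 and 12 pairs over the single groups. Where a count in this section has no share of all genes beside it, it does not show a change particular to the glial genes. The numbers do not pair mice, since same-numbered mice of LPSREPOP and REPOP60 correlated by -0.005 to 0.063, and the median over 198 same-numbered pairs of RE mice was -0.033. LPSCD against CD gave 5 without the suffix term and 12 in the fit of all 16 groups (6.43% of all genes).

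For the single groups, DESeq2 kept 1 pair, and the fit of all 16 groups, filterByExpr, the fit without suffix and the rule with a fold threshold each left 0, while RE mice alone gave 6. With the fold threshold LPSREPOP against REPOP60 kept 3 glial genes (0.437% of all genes) and the suffix comparison 1 (933 of 28211 genes). Leaving out 1 mouse gave 0 to 1 in REPOP14 to REPOP60 against depletion, 0 to 9 in LPSCD against CD, 7 to 13 in LPSREPOP against REPOP60, 0 to 1 in LPSREPOP against LPSCD, 0 to 2 in the difference of the LPS effects and 0 to 5 pairs in the single groups, where only CD mice were left out. Over all genes, DESeq2 called 73 in place of 11 in LPSCD against CD and 444 in place of 728 in LPSREPOP against REPOP60. The cause was not tested. Of the values for single genes 480 stayed on the same side, 34 were stronger and 71 weaker, and 1 moved by more than the spread between mice, the Vim difference between LPSREPOP and REPOP60, which was 0.55 on the log2(FPKM + 1) scale. At 3 counts as the floor, Gjb6, Ntsr2 and often Fabp7 cannot be read at this depth.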
